A study of Homo sapiens with 4 samples.

Results

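Antisense long noncoding RNAs (lncRNAs) were followed through the polysome profiling libraries of METTL3-reconstituted MDA-MB-231 cells. They were taken by name and level: of the 1235 lncRNAs in the table whose name is that of another gene followed by -AS and 1 digit, 136 averaged at least 1 FPKM across the 4 libraries (FPKM, fragments per kilobase of transcript, scaled to the fragments mapped in the library). The members were therefore chosen by the measured mean, which is given below as a description. Of the other antisense names, 667 were listed at 0 in all 4 libraries and 432 had values above 0 but below the minimum. The members just inside the minimum were C8orf37-AS1 with a mean of 1.06 FPKM, IPO9-AS1 with 1.06 FPKM and SAPCD1-AS1 with 1.08 FPKM, and the antisense lncRNAs just outside it were HSD11B1-AS1 with 0.988 FPKM and RUSC1-AS1 with 0.983 FPKM.

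MDA-MB-231 is a human breast cancer line, and the cells were depleted of METTL3 and then infected with lentiviruses carrying METTL3 WT or METTL3 K177Q, in which glutamine replaces a lysine to mimic its acetylation. METTL3 is the catalytic subunit of the enzyme that writes N6-methyladenosine on mRNA. In both genotypes ribosomes were arrested by 5 min in cycloheximide at 100 µg/mL, and lysates were separated on a gradient of 10 to 50% sucrose, and the fractions were pooled into a sub-polysome fraction, with free ribosomal subunits and single ribosomes, and a polysome fraction. There was 1 library of each fraction and genotype, all from replicate 2 by their labels, and replicate 1 was not analysed here, so that the values below come without replicate errors and the genotypes are described, not tested.

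An antisense lncRNA is transcribed from the strand opposite to the gene it is named after. Some start near the promoter of the sense gene and run away from it, others run through its exons, and members of the class are known to act on transcription, splicing or stability of the sense RNA, while for many no function is known. They have no annotated protein, although ribosomes can bind short reading frames in lncRNAs.

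The table was checked against markers of the cell line, while its values per gene do not show the genotype. METTL3 was listed at 9.39 FPKM in the WT sub-polysome, 38.7 FPKM in the WT polysome, 5.07 FPKM in the K177Q sub-polysome and 29.5 FPKM in the K177Q polysome library, and the table does not separate the endogenous from the introduced RNA. Of the genes that mark the line, VIM (vimentin, a mesenchymal intermediate filament) had a mean of 1113 FPKM, against 0.00433 FPKM for the oestrogen receptor gene ESR1, 0.00320 FPKM for the progesterone receptor gene PGR and 0.349 FPKM for the E-cadherin gene CDH1. Other epithelial and receptor genes were not near 0, with 19.4 FPKM for ERBB2, a receptor kinase, 7.91 FPKM for the adhesion molecule gene EPCAM and 511 FPKM for the keratin gene KRT18. The file holds no counts. From the lowest cluster of values per transcript length, the libraries held roughly between 25800000 and 26800000 fragments, which put the median member at 141 fragments in the WT sub-polysome, 46.3 in the WT polysome, 162 in the K177Q sub-polysome and 36.2 in the K177Q polysome library. Standard errors given below follow from these approximate fragment numbers and cover counting error only. The limits of the cluster (0.03 to 0.045) were chosen after seeing the values. They bound the estimated depth, so its likeness across libraries is not a result. IQCH-AS1 in the WT polysome library came out below 1 fragment (0.40), so fragment numbers and standard errors are rough.

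For some of the members at the ends of the ranges described below, the longest reading frame of the canonical transcript is shown, since it is what a ribosome could read there. All were shorter than 300 bases and free of annotated untranslated regions of other genes. They are written 5′ to 3′ from the GENCODE 44 transcript on GRCh38, with the start and stop codons in capitals. VIM-AS1 (chr10:17214344-17214490, minus strand, 49 codons with the stop) and CEBPB-AS1 (chr20:50186112-50186387, minus strand, 92 codons) were among the members with the highest polysome to sub-polysome ratios. CDK6-AS1 (chr7:92854971-92916939, plus strand, 44 codons over 2 exons) was named for a rise of that ratio in METTL3 K177Q cells. Its log2 ratios were low, at -3.72 in WT and -2.88 in K177Q cells. HDAC4-AS1 (chr2:239402052-239402246, plus strand, 65 codons) had the largest rise of the ratio in METTL3 K177Q cells by the rule for named genes, and RBMS3-AS3 (chr3:29056714-29279770, minus strand, 75 codons over 3 exons) the largest fall.
VIM-AS1: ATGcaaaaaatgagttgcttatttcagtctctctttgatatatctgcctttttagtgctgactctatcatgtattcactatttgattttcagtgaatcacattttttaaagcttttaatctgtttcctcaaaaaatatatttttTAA
CEBPB-AS1: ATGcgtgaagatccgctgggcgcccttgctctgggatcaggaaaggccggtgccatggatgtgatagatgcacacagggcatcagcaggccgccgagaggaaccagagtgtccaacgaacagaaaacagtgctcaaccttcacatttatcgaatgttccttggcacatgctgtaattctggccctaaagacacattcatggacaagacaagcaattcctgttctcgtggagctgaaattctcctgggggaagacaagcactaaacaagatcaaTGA
CDK6-AS1: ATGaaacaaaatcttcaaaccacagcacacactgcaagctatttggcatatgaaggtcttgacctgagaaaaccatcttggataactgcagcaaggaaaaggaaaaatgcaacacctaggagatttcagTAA
HDAC4-AS1: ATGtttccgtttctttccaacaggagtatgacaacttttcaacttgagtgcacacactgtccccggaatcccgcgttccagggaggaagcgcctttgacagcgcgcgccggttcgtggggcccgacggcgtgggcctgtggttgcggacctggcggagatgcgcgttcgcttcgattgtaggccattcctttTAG
RBMS3-AS3: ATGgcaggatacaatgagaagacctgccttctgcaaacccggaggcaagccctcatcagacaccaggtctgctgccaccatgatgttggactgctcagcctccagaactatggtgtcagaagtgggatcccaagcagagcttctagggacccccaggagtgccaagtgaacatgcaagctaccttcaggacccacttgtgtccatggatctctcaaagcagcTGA
The frame of VIM-AS1 covered 7.73% of its transcript and that of CEBPB-AS1 10.4%, against 20.6% in CDK6-AS1, 20.4% in HDAC4-AS1 and 13.1% in RBMS3-AS3. Of the frames not shown because they are longer or touch annotated untranslated regions, that of PYCARD-AS1, also among the highest polysome to sub-polysome ratios, had 615 bases (56.2% of the transcript) and that of IQCH-AS1, among the lowest, 324 bases (61.1%).

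The antisense lncRNAs were low in level. Their means ran from 1.06 to 84.2 FPKM with a median of 2.37 FPKM, against a median of 3.02 FPKM over the 269 other lncRNAs and 10.3 FPKM over the 10383 mRNAs that passed the same minimum. A mean of at least 10 FPKM was found for 23 members, and 57 lay under 2 FPKM. Together they held 1212 FPKM in the WT sub-polysome library but 428 FPKM in the WT polysome library, and 1387 FPKM against 369 FPKM in METTL3 K177Q cells. This was 0.135% of all FPKM in the WT sub-polysome, 0.0522% in the WT polysome, 0.134% in the K177Q sub-polysome and 0.0481% in the K177Q polysome library. These 136 members therefore had a smaller share of all FPKM in the polysome than in the sub-polysome library of each genotype. Of the FPKM of all lncRNAs their share was instead larger in the polysome libraries, at 10.3% in the WT sub-polysome, 14.9% in the WT polysome, 10.0% in the K177Q sub-polysome and 16.1% in the K177Q polysome library. A share of the RNA does not tell fewer cells with a transcript from less of it per cell.

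IER3-AS1 (chr6:30742757-30743638, plus strand) was the most abundant member. It shares 440 exon bases with IER3, an immediate early gene, and was listed at 81.1 FPKM in the WT sub-polysome, 58.3 FPKM in the WT polysome, 139 FPKM in the K177Q sub-polysome and 58.0 FPKM in the K177Q polysome library. Its polysome values were alike in both genotypes, and its sub-polysome value was the higher in METTL3 K177Q cells. SERTAD4-AS1 (chr1:210231456-210234047, minus strand) had 104 FPKM in the WT sub-polysome, 19.7 FPKM in the WT polysome, 95.5 FPKM in the K177Q sub-polysome and 11.8 FPKM in the K177Q polysome library, so that its FPKM was several times higher in the sub-polysome than in the polysome library of both genotypes. EPB41L4A-AS1 (chr5:112160526-112164818, plus strand), which hosts a small nucleolar RNA, had 49.2 FPKM in the WT sub-polysome, 11.4 FPKM in the WT polysome, 64.7 FPKM in the K177Q sub-polysome and 7.49 FPKM in the K177Q polysome library. ZNF433-AS1, opposite a gene for a zinc finger protein, had 45.4 and 9.78 FPKM in the WT sub-polysome and polysome libraries and 63.5 and 6.56 FPKM in those of METTL3 K177Q cells. In these 3 members the polysome value lay below the sub-polysome value in each genotype, and it was a smaller fraction of that value in METTL3 K177Q cells.

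The next members in the order of means were MAPKAPK5-AS1, opposite a stress-activated kinase gene, with a mean of 25.2 FPKM, FOXD3-AS1, opposite a forkhead transcription factor gene, with 22.9 FPKM, ATP2A1-AS1, opposite a muscle calcium pump gene, with 21.8 FPKM, VIM-AS1 with 21.1 FPKM, AGAP2-AS1, opposite a gene for a GTPase-activating protein, with 20.6 FPKM, and TRIM52-AS1, opposite a gene for a ubiquitin ligase, with 19.7 FPKM. Of the 10 most abundant members, 7 had a sense gene with a mean under 5 FPKM. ATP2A1 itself had 0.135 FPKM, AGAP2 0.145 FPKM and TRIM52 0.478 FPKM.

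**Figure D1:**
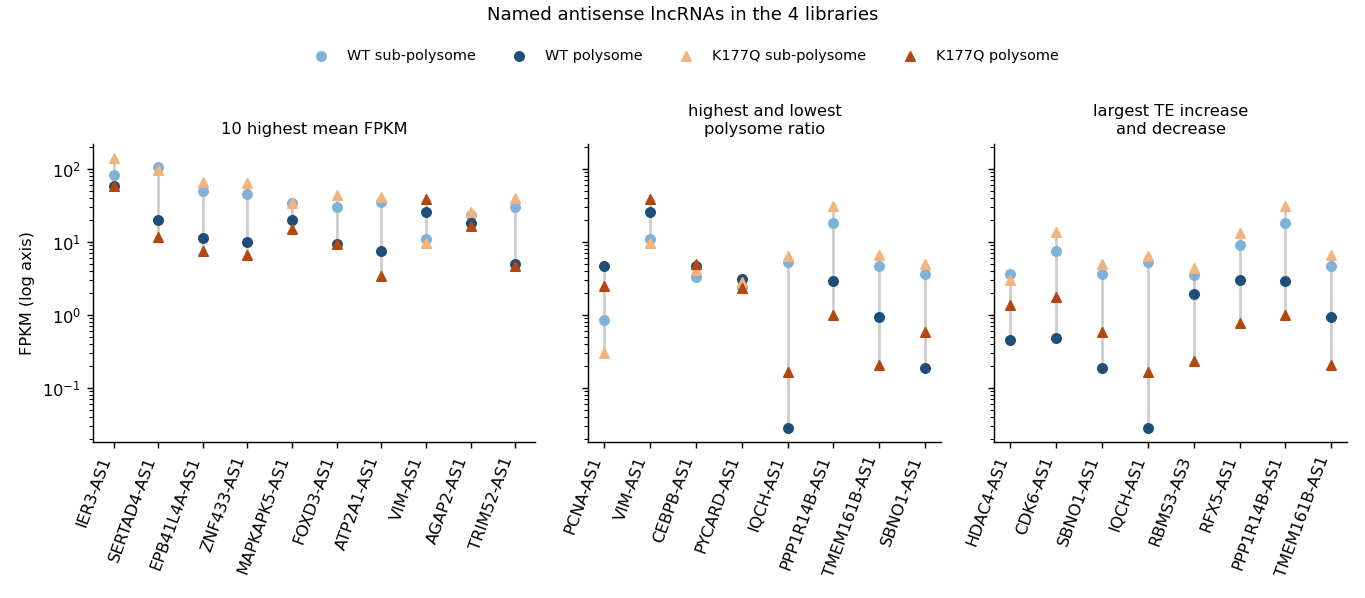
FPKM (log axis) of the named antisense lncRNAs in the 4 libraries, 1 point per library (circles, METTL3 WT; triangles, METTL3 K177Q; light, sub-polysome; dark, polysome) joined by a grey line over the range. TE is the translation efficiency, the polysome to sub-polysome ratio. Most members have the dark points below the light ones, with VIM-AS1 (25.8 and 38.0 FPKM in polysomes, 10.9 and 9.63 FPKM in the sub-polysome libraries), PCNA-AS1 and CEBPB-AS1 the other way round in both genotypes and PYCARD-AS1 in WT cells.

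In METTL3 WT cells, most antisense lncRNAs had a lower FPKM in the polysome than in the sub-polysome library. Each library is scaled to its own total and the RNA amount per fraction is not known here, so the values compare shares of 2 libraries and not numbers of molecules. The measure was the log2 ratio of polysome to sub-polysome FPKM, with 0.1 FPKM added to each, and genes from 1.5-fold up or down were counted as higher or lower. The ratio was lower in 117 of the 136 members and higher in 4, where 19.1% of the 10905 genes kept were lower and 28.1% higher. The members' median log2 ratio was -1.56, with a 95% interval of the median over members from -1.72 to -1.34, beside 0.14 over all kept genes and 0.18 over mRNAs. This is a 2.95-fold lower FPKM in the polysome library for the median member. The ratios of single members ran from -5.37 to 2.32.

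In METTL3 K177Q cells, 122 members were lower and 3 higher, where 21.3% of all kept genes were lower and 30.2% higher. The median was -1.94 (95% interval -2.12 to -1.72), a 3.83-fold lower FPKM in the polysome library, beside 0.16 over all kept genes. Lower in both genotypes were 112 members, beside 15.9% of all kept genes, and 35 of them were at least 4-fold lower in both, beside 1.86%. There were 3 members higher in both, beside 23.2% of all kept genes. The ratios of the members in the 2 genotypes, which come from different libraries, had a Spearman rho of 0.56 across 136 members, given as a description since members share library and depth.

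The minimum mean can be met through the sub-polysome libraries alone, and 46 members had at least 1 FPKM in both sub-polysome libraries but less in both polysome libraries, beside 2.43% of all kept genes. The reverse held for 2 members, beside 1.18% of all kept genes. Among the 61 members with at least 1 FPKM in each of the 4 libraries, the median log2 ratio was -1.40 in WT and -1.74 in K177Q cells, and 50 and 55 were lower, where 16.8% and 19.1% of the 10009 genes that met the same condition were lower. Of the 432 antisense names with values under the minimum, 336 also had a lower mean over the polysome than over the sub-polysome libraries (77.8%), beside 56.7% of the 6697 genes of any class with values under the minimum.

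**Figure D2:**
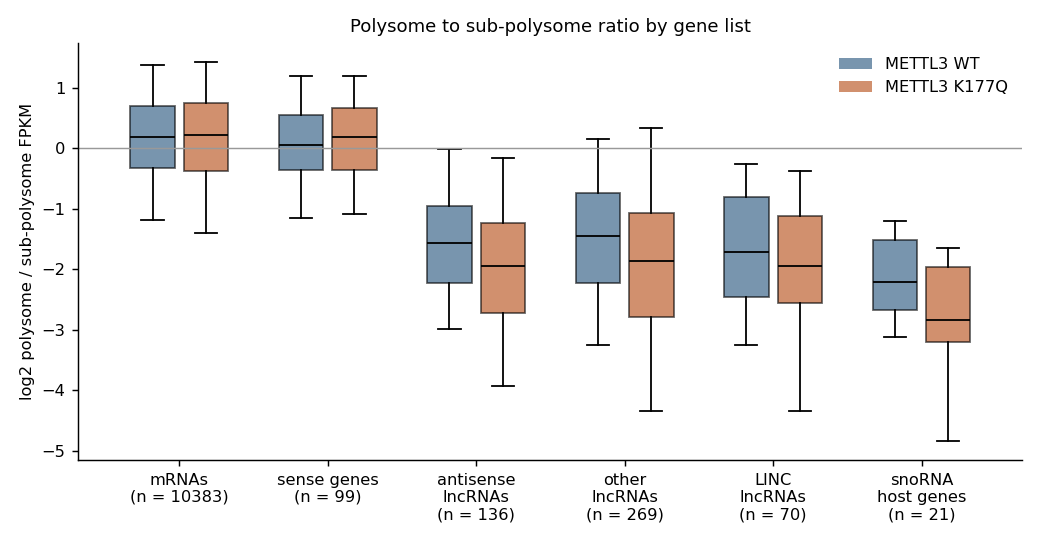
Log2 polysome to sub-polysome FPKM ratio by gene list in METTL3 WT (blue) and METTL3 K177Q (orange) cells. The line is the median over genes, the box spans the quartiles and the whiskers the 5th to the 95th percentile. The boxes of the 136 antisense lncRNAs (medians -1.56 and -1.94) lie below those of their 99 sense genes (0.05 and 0.19) and at the height of the 269 other lncRNAs (-1.44 and -1.87).

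This position was not particular to antisense lncRNAs. The other lncRNAs had a median of -1.44 (95% interval -1.61 to -1.31) in WT and -1.87 (-2.04 to -1.72) in K177Q cells, and their intervals overlapped those of the members in both genotypes. The 70 lncRNAs with LINC names, which are intergenic by definition, had -1.72 and -1.95. The 21 host genes of small nucleolar RNAs, whose spliced RNAs are largely untranslated, include the member EPB41L4A-AS1. They had medians of -2.21 (95% interval -2.67 to -1.52) in WT and -2.83 (-3.20 to -1.96) in K177Q cells. These medians were lower than those of the members, and the intervals overlapped but are wide over 21 genes. All 21 were lower at 1.5-fold in both genotypes, beside 15.9% of all kept genes. NEAT1, the scaffold RNA of nuclear paraspeckles, had 5.98 FPKM in WT polysomes, with a log2 ratio of -1.41. MALAT1, a nuclear speckle RNA, had a mean of 1.23 FPKM and log2 ratios of -0.44 in WT and -0.11 in K177Q cells, nearer to 0 than most members.

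PCNA-AS1, opposite the gene of the replication clamp PCNA, had the highest mean ratio of the 77 members with a mean of at least 2 FPKM and a value above 0 in every library. Its values were 0.859 FPKM in the WT sub-polysome, 4.67 FPKM in the WT polysome, 0.297 FPKM in the K177Q sub-polysome and 2.47 FPKM in the K177Q polysome library, and log2 ratios were 2.32 and 2.696. PCNA on the other strand had 67.4, 204, 57.3 and 172 FPKM in the same order and ratios of 1.60 and 1.58. In the RefSeq annotation PCNA-AS1 (chr20:5119586-5119969) lies inside PCNA (chr20:5114953-5126622). It was not matched to a GENCODE gene, so that no fragment number was estimated.

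VIM-AS1 (chr10:17214239-17230018, minus strand) came next, with 10.9 FPKM in the WT sub-polysome, 25.8 FPKM in the WT polysome, 9.63 FPKM in the K177Q sub-polysome and 38.0 FPKM in the K177Q polysome library. Polysome values were above sub-polysome values in both genotypes, with log2 ratios of 1.24 (counting SE 0.07) and 1.97 (counting SE 0.07). VIM itself had ratios of 1.19 and 1.16, and VIM-AS1 stood at 1.89% of the VIM level and shares 656 exon bases with it. CEBPB-AS1, opposite a transcription factor gene, followed with 3.30 and 4.59 FPKM in WT and 4.08 and 4.92 FPKM in K177Q cells, and log2 ratios of 0.46 and 0.26. PYCARD-AS1, opposite the gene of an inflammasome adaptor, had 2.39 and 3.13 FPKM in WT and 2.83 and 2.35 FPKM in K177Q cells, so that its order changed between genotypes by a ratio of 0.38 (counting SE 0.23) against -0.26 (counting SE 0.24). Their sense genes CEBPB and PYCARD had means of 305 and 49.5 FPKM. Below 2 FPKM, outside the rule for named genes and chosen after its values were seen, DBH-AS1 also had ratios above 0 in both genotypes, at 1.14 and 0.74, and its sense gene DBH had a mean of 0.0196 FPKM.

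At the other end, IQCH-AS1 had 5.20 FPKM in the WT sub-polysome, 0.0282 FPKM in the WT polysome, 6.30 FPKM in the K177Q sub-polysome and 0.168 FPKM in the K177Q polysome library. Its log2 ratios of -5.37 and -4.58 rest on a few fragments in polysomes, and the counting SE was 2.29 in WT. PPP1R14B-AS1 (chr11:64245838-64248221, plus strand), opposite a phosphatase inhibitor gene, had 18.1 and 2.90 FPKM in WT and 31.1 and 0.984 FPKM in K177Q cells, with ratios of -2.60 (counting SE 0.24) and -4.85 (counting SE 0.40). TMEM161B-AS1, which the current annotation names TMEM161B-DT for divergent transcript, had 4.61 and 0.925 FPKM in WT and 6.59 and 0.207 FPKM in K177Q cells. SBNO1-AS1, opposite a gene for a helicase-like protein, had 3.66 and 0.186 FPKM in WT and 5.00 and 0.584 FPKM in K177Q cells. Its log2 ratio was the lower in WT cells, at -3.71 against -2.90 in K177Q cells.

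The genotypes were compared within each fraction. The median log2 ratio of METTL3 K177Q to WT over the members was -0.25 (95% interval -0.39 to -0.12) in the polysome libraries, beside -0.02 over all kept genes, with 33 members lower and 16 higher, where 3.13% of all kept genes were lower and 2.13% higher. In the sub-polysome libraries it was 0.10 (95% interval 0.00 to 0.23) in FPKM, or -0.11 after rescaling to TPM, where the median over all kept genes was 0.00 in FPKM and -0.21 in TPM, with 20 members higher and 7 lower in FPKM, where 4.01% of all kept genes were higher and 2.94% lower. In TPM the balance of the sub-polysome counts turned round, with 14 of 141 antisense lncRNAs higher and 19 lower, where 1.88% of all genes were higher and 9.85% lower. The polysome counts in TPM were 33 lower and 20 higher, where 2.38% and 3.46% of all genes were. TPM rescales the values of each library to the same sum, which moved the median of all kept genes by 0.09 in the polysome and by -0.20 in the sub-polysome comparison. Relative to the median of all genes, the members stood at -0.23 in FPKM and -0.24 in TPM in polysomes and at 0.10 in both units outside them. A value below 0 in polysomes together with a value above 0 outside them was found in FPKM for 52 of 136 members (38.2%), beside 23.9% of all kept genes. Medians of opposite sign were not particular to the members. In FPKM they were -0.28 in polysomes and 0.13 outside them in other lncRNAs. The LINC lncRNAs had -0.22 and 0.25, and the snoRNA host genes -0.58 and 0.13.

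**Figure D3:**
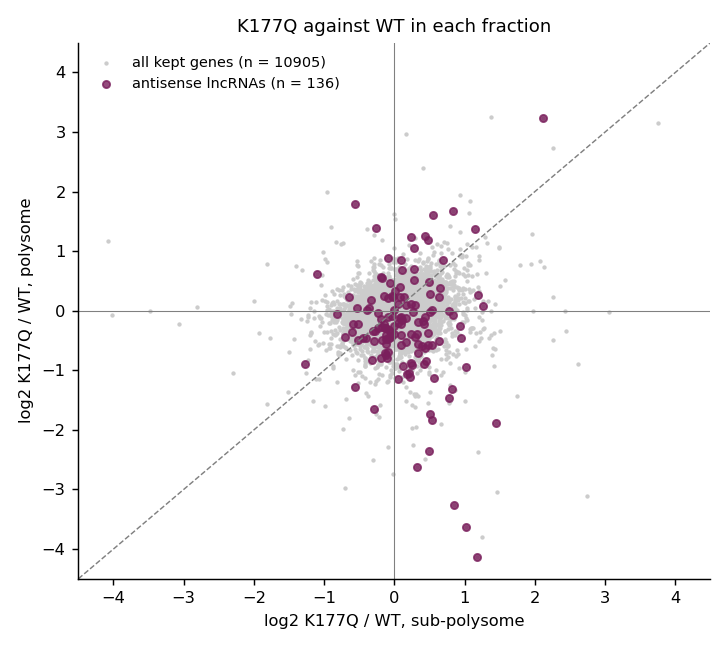
METTL3 K177Q over METTL3 WT on the log2 scale in the sub-polysome (horizontal) and polysome (vertical) libraries, in FPKM, for the 136 antisense lncRNAs (purple) and all 10905 kept genes (grey, of which 5 lie outside the axes). Points below the dashed diagonal have a translation efficiency ratio below 0. The antisense lncRNAs spread further from the centre than most genes, and 52 of them lie below 0 vertically and above 0 horizontally.

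The difference of the 2 comparisons is the translation efficiency ratio, the polysome to sub-polysome ratio in METTL3 K177Q cells over that in WT cells. For an lncRNA it states a place in the gradient, not synthesis of a protein. The median log2 ratio of the members was -0.27 (95% interval -0.41 to -0.17) in FPKM and 0.03 in TPM, where the median of all kept genes was -0.01 and 0.29, so that the members stood 0.26 below all genes in both units. In FPKM, 47 members were lower and 17 higher, where 7.03% of all kept genes were lower and 4.08% higher. In TPM, 34 of 141 antisense lncRNAs were lower and 31 higher, where 2.83% of all genes were lower and 18.6% higher. Rescaling moved the median of all kept genes by 0.30. In other lncRNAs the median was -0.43 (95% interval -0.53 to -0.28) in FPKM, with 110 of 269 lower and 31 higher.

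The higher and lower members were also counted by level, and the plot shows the ratio against level. Among members with a mean under 2 FPKM, 18 of 57 were lower and 10 higher, where 13.2% and 13.4% of the genes at that level were. Among the 38 members with at least 5 FPKM, 13 were lower and 2 higher, where 5.69% and 1.22% of the genes at that level were. With at least 1 FPKM in each library, 17 of 61 were lower and 3 higher, where 5.49% and 2.82% of such genes were. Of the 568 antisense names with any value above 0, 182 were lower and 119 higher, where 12.2% and 10.4% of all such genes were. A 2-fold limit left 30 of the 136 members lower and 5 higher, where 1.9% and 0.77% of all kept genes were, and with 1 FPKM added in place of 0.1 there were 5 higher at 1.5-fold, where 1.46% of all kept genes were. A counting SE could be given for 42 of the 47 lower and 16 of the 17 higher members. The ratio exceeded 2 such SEs in 27 and in 5. These members were first picked by the size of the same ratio, and no share over all kept genes is given. The counts therefore do not test the changes. The median counting SE of the ratio was 0.37 over 127 members. ZNF687-AS1, EXOSC10-AS1 and KANSL1-AS1 are counted as lower and were listed at 0 in the K177Q polysome library, with 1.14, 1.66 and 0.864 FPKM in WT polysomes, and C8orf37-AS1 is counted as higher and was listed at 0 in the WT polysome library. Their ratios depend on the added 0.1 FPKM and no fold is given for them.

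**Figure D4:**
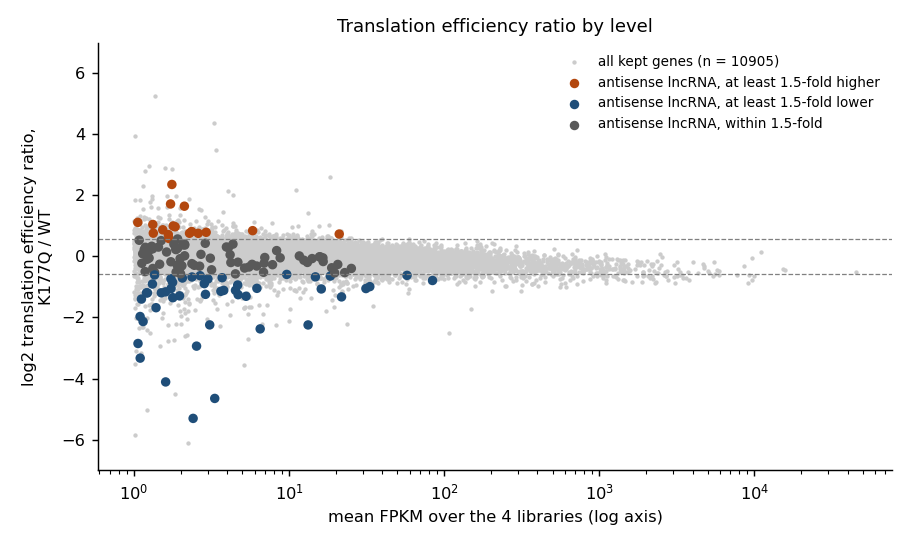
Log2 translation efficiency ratio (METTL3 K177Q over METTL3 WT, in FPKM) against mean FPKM over the 4 libraries (log axis) for the antisense lncRNAs and all 10905 kept genes (grey). Dashed lines mark 1.5-fold. Of the members, 47 lie under the lower line (blue) and 17 over the upper line (orange), beside 7.03% and 4.08% of all kept genes. In TPM these numbers are 34 and 31 of 141, beside 2.83% and 18.6% of all genes.

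Among the most abundant members, ATP2A1-AS1 (chr16:28877938-28879938, minus strand) was listed at 35.4 FPKM in the WT sub-polysome, 7.38 FPKM in the WT polysome, 41.1 FPKM in the K177Q sub-polysome and 3.36 FPKM in the K177Q polysome library. Its translation efficiency was 2.51-fold lower in METTL3 K177Q cells (log2 ratio -1.33, counting SE 0.14). ZNF433-AS1 was 2.07-fold lower (log2 ratio -1.05, counting SE 0.20), EPB41L4A-AS1 1.99-fold (-0.99, counting SE 0.08), IER3-AS1 1.73-fold (-0.79, counting SE 0.09) and SERTAD4-AS1 1.54-fold (-0.62, counting SE 0.17). In TPM the log2 ratios were -1.03 in ATP2A1-AS1, -0.76 in ZNF433-AS1 and -0.69 in EPB41L4A-AS1, while IER3-AS1 (-0.49) and SERTAD4-AS1 (-0.32) were under the 1.5-fold limit. In FPKM the change of IER3-AS1 came with a higher sub-polysome value and an even polysome value. In SERTAD4-AS1 the polysome value differed more between genotypes (log2 -0.74) than the sub-polysome value (-0.12), again in FPKM. FOXD3-AS1, TRIM52-AS1, MAPKAPK5-AS1 and AGAP2-AS1 had log2 ratios between -0.54 and -0.26 in FPKM, under the 1.5-fold limit, and AGAP2-AS1 was at 0.03 in TPM. VIM-AS1 was 1.66-fold higher (log2 ratio 0.73, counting SE 0.10), while VIM had a log2 ratio of -0.03 in FPKM.

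By the rule for named genes, the largest falls were those of RBMS3-AS3, RFX5-AS1, PPP1R14B-AS1 and TMEM161B-AS1. RBMS3-AS3 (chr3:29054570-29290726, minus strand), opposite a gene for an RNA-binding protein, had 3.54 FPKM in the WT sub-polysome, 1.94 FPKM in the WT polysome, 4.43 FPKM in the K177Q sub-polysome and 0.232 FPKM in the K177Q polysome library, and its ratio was 7.67-fold lower (log2 ratio -2.94, counting SE 0.50), or -1.52 on the log2 scale with 1 FPKM added in place of 0.1. RFX5-AS1 (chr1:151346938-151348027, plus strand), opposite a regulator of MHC class II genes, had 9.06 and 3.03 FPKM in WT and 13.2 and 0.776 FPKM in K177Q cells (log2 ratio -2.37, counting SE 0.47). PPP1R14B-AS1 and TMEM161B-AS1, whose values stand above, had log2 ratios of -2.24 (counting SE 0.47) and -2.24 (counting SE 0.38). With 1 FPKM added the log2 ratios were -1.68 in RFX5-AS1, -1.72 in PPP1R14B-AS1 and -1.11 in TMEM161B-AS1, so that the size of these falls depends on the added constant. In all 4 the K177Q polysome value was the lowest of the 4 libraries and the K177Q sub-polysome value the highest. In FPKM their sense genes had log2 ratios closer to 0, of -0.28 in RBMS3, -0.04 in RFX5, -0.50 in PPP1R14B and -0.08 in TMEM161B.

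HDAC4-AS1 (chr2:239401436-239402657, plus strand), opposite a histone deacetylase gene, had the largest rise under the same rule. It was listed at 3.64 FPKM in the WT sub-polysome, 0.455 FPKM in the WT polysome, 3.02 FPKM in the K177Q sub-polysome and 1.35 FPKM in the K177Q polysome library, a 3.13-fold higher ratio (log2 1.64, counting SE 0.54), or a log2 ratio of 0.90 with 1 FPKM added. CDK6-AS1 (chr7:92836367-92917188, plus strand), opposite a cell cycle kinase gene, had 7.56 and 0.480 FPKM in WT and 13.5 and 1.75 FPKM in K177Q cells (log2 ratio 0.84, counting SE 0.59). SBNO1-AS1 and IQCH-AS1 followed with 0.81 (counting SE 0.55) and 0.79 (counting SE 2.48). With 1 FPKM added CDK6-AS1 (0.13) and SBNO1-AS1 (0.051) fell under the 1.5-fold limit and IQCH-AS1 (-0.053) was negative. With 0.01 FPKM added the log2 ratios were 1.01 in CDK6-AS1, 1.15 in SBNO1-AS1 and 1.94 in IQCH-AS1, which then stood above HDAC4-AS1 (1.81). With 0.1 FPKM added, the ratios of CDK6-AS1, SBNO1-AS1 and IQCH-AS1 were within 2 counting SEs of 0. These members rested on about 8, 10 and less than 1 fragment in WT polysomes. Outside the rule, with means under 2 FPKM and chosen after their values were seen, SOCS2-AS1 had 2.93 and 0.425 FPKM in WT and 1.95 and 1.72 FPKM in K177Q cells (log2 ratio 2.36, counting SE 0.38). RALY-AS1 had 0.926 and 0.668 FPKM in WT and 2.69 and 0.108 FPKM in K177Q cells (log2 ratio -3.33, counting SE 0.47).

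A list of 28 antisense lncRNAs and related names often studied in cancer held 12 members, OIP5-AS1, FGD5-AS1, SBF2-AS1, ZEB1-AS1, TMPO-AS1, PSMA3-AS1, MAGI2-AS3, AFAP1-AS1, NR2F1-AS1, FOXD2-AS1, VPS9D1-AS1 and VIM-AS1. These 12 members held 10 that were lower in polysomes in both genotypes, beside 15.9% of all kept genes. Their translation efficiency ratio was lower in 0 and higher in 3, VIM-AS1, ZEB1-AS1 (log2 0.76, counting SE 0.66) and MAGI2-AS3 (log2 0.71, counting SE 0.96), of which ZEB1-AS1 is under the 1.5-fold limit, at 0.47, and MAGI2-AS3 negative, at -0.022, with 1 FPKM added in place of 0.1. Over all kept genes 7.03% were lower and 4.08% higher. In TPM 5 of the 12 were higher, with OIP5-AS1 (log2 0.60) and PSMA3-AS1 (0.66) added, and 0 lower, where 18.6% of all genes were higher and 2.83% lower. FGD5-AS1, with 26.2 and 6.25 FPKM in WT and 24.6 and 5.78 FPKM in K177Q cells, and VPS9D1-AS1, with 6.83 and 2.04 FPKM in WT and 5.97 and 1.85 FPKM in K177Q cells, had nearly the same gradient position in both genotypes in FPKM (log2 ratios -0.02 with a counting SE of 0.17 and 0.05 with a counting SE of 0.25), and log2 ratios of 0.28 and 0.34 in TPM. OIP5-AS1, a conserved lncRNA also called cyrano, had 6.17 and 1.77 FPKM in WT and 5.78 and 2.08 FPKM in K177Q cells (log2 ratio 0.31, counting SE 0.18). AFAP1-AS1 had 5.62 and 2.35 FPKM in WT and 5.49 and 2.83 FPKM in K177Q cells (log2 ratio 0.29, counting SE 0.11). Among the other names, CDKN2B-AS1, GAS6-AS1 and EGFR-AS1 were listed at 0 in every library.

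The sense gene was in the table for 135 members, and for 99 it also had a mean of at least 1 FPKM. The sense gene had the higher mean in 80 of these 99 pairs, by 3.84-fold in the median pair. Across pairs the level of one strand gave little about the other (Spearman rho -0.09, n = 99). The antisense lncRNA had the lower polysome to sub-polysome ratio in 92 pairs in WT and in 89 pairs in K177Q cells. The median difference was -1.69 on the log2 scale (95% interval -1.94 to -1.45) in WT and -2.11 (-2.46 to -1.80) in K177Q cells. The 99 sense genes had medians of 0.05 and 0.19, near all kept genes. Ratios of the 2 strands were unrelated across pairs, with a Spearman rho of 0.07 in WT and -0.11 in K177Q cells, given as a description over 99 pairs that share libraries.

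**Figure D5:**
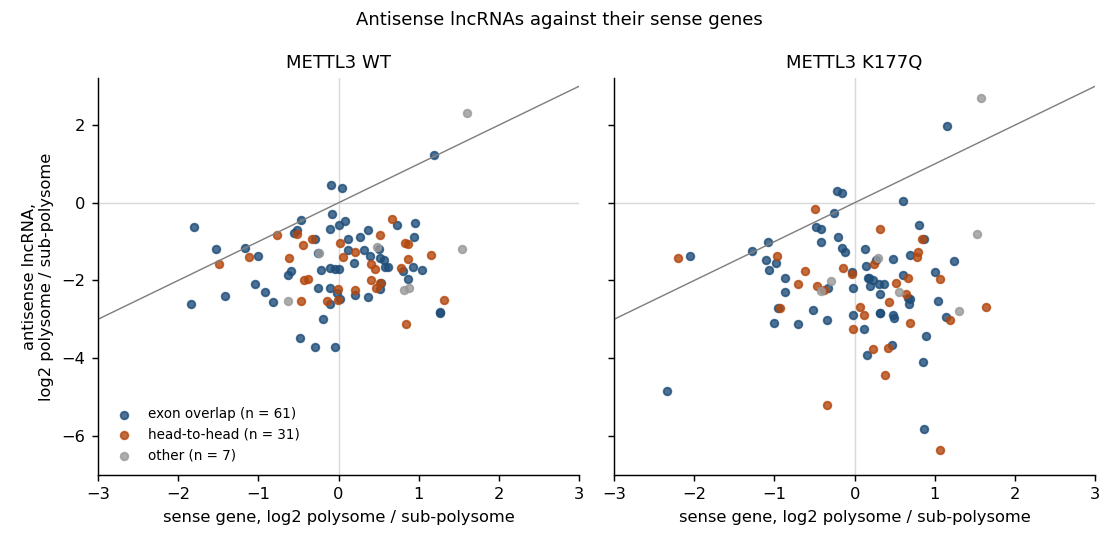
Log2 polysome to sub-polysome ratio of each antisense lncRNA (vertical) against its sense gene (horizontal) in METTL3 WT (left) and METTL3 K177Q (right) cells, for the 99 pairs with a mean of at least 1 FPKM on both strands, coloured by arrangement. The grey line marks equal ratios, and 92 (left) and 89 (right) points lie below it.

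The translation efficiency ratio was within 1.5-fold in most of the 99 sense genes, of which 4 were higher and 3 lower in FPKM, where 4.08% of all kept genes were higher and 7.03% lower. In TPM 21 were higher and 1 lower, where 18.6% of all genes were higher and 2.83% lower. In FPKM 1 pair was lower on both strands. The median difference between strands was -0.33 (95% interval -0.51 to -0.14), a quantity that no rescaling of libraries changes apart from the filter and the added constant. It was below 0 in 67 of 99 pairs.

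Positions in the annotation sorted the members by arrangement. The 36 head-to-head members (start sites at most 2000 bases apart and pointing away from each other) were set apart first, and 21 of them also share exon bases with the sense gene. Of the others, 85 had exon overlap, so that 106 share exon bases in all, 8 overlapped without shared exon bases, 1 (FOXD2-AS1) did not overlap and 6 could not be placed with their sense gene. The head-to-head starts were a median of 154 bases apart. Levels were close, with a median of 2.71 FPKM with exon overlap and 2.04 FPKM head-to-head. The median polysome to sub-polysome ratio was -1.55 in WT and -1.93 in K177Q cells with exon overlap and -1.58 and -2.08 head-to-head. In the 31 head-to-head pairs with a sense gene of at least 1 FPKM, the antisense lncRNA had the lower ratio in 31 in WT and in 29 in K177Q cells, and with exon overlap in 55 and 54 of 61. Lower translation efficiency was counted in 30 of 85 members with exon overlap and in 14 of 36 head-to-head members in FPKM, and higher in 14 and 3, where 7.03% of all kept genes were lower and 4.08% higher. In TPM the same members were lower in 20 and 13 and higher in 19 and 7, where 2.83% of all genes were lower and 18.6% higher.

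The libraries were made with a strand-directional kit, but no source used here states whether strand was used in counting, so that reads of shared exons could be assigned to the wrong strand. Wrong-strand reads were not measured. As a description, the level was compared with that of the sense gene, without scaling to the shared bases, for antisense names at any level that share exon bases with a sense gene of at least 100 FPKM. Of 38 such names, 26 were under 1 FPKM and 8 were listed at 0, among them GAS6-AS1 and HM13-AS1, whose sense genes had 382 and 446 FPKM. The median name stood at 0.109% of its sense gene. PXN-AS1, with 6.20%, was the highest, and IER3-AS1 (2.101%), VIM-AS1 (1.89%), CEBPB-AS1 (1.39%) and PPP1R14B-AS1 (0.882%) were among the 12 that reached the minimum. PCNA-AS1 was not among the 38 names, since it was not matched to a GENCODE gene, although in RefSeq it lies inside PCNA. It stood at 1.66% of PCNA, which had a mean of 125 FPKM. Whether sense reads contributed to these single members was not tested.

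Canonical transcripts were found for 131 of the 136 members. They had a median length of 1185 bases, 53.2% G and C and a longest reading frame of 234 bases, against 1563 bases, 48.6% and 243 bases in the 182 other lncRNAs with a transcript, which are 67.7% of that list. The letters GGACT, a form of the motif at which METTL3 methylates RNA, occurred on the transcript strand in 97 of 131 members (74.0%) and in 76.9% of the other lncRNAs, and a match is not a methylated site. AATAAA, the polyadenylation signal, was within the last 50 bases in 43.5% and 50.0%. Across the 131 members, the ratio in WT cells had a Spearman rho of 0.17 with transcript length, 0.25 with the length of the reading frame, 0.22 with G and C content and 0.13 with the number of GGACT, all weak and given as descriptions. Ranked by length, the median ratio was -1.74 in WT and -2.22 in K177Q cells in the 44 shortest members (up to 822 bases) and -1.38 and -1.60 in the 44 longest (from 1758 bases), and the median translation efficiency ratio in FPKM was -0.51 and -0.17.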

How the data were processed

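Poly(A)-selected RNA of sub-polysome and polysome fractions of METTL3 WT and METTL3 K177Q cells was measured in 4 libraries. The authors deposited FPKM per gene, aligned per the labels with STAR 2.7 and quantified with StringTie 2.1.5 on hg38. The annotation and strand setting are not given in the sources used here. Values were used as deposited, and 4 further columns, named in the same way but with replicate number 1, matched no listed sample and were not used. FPKM removes changes shared by a whole library and holds no counts, so depth is approximate: the lowest cluster of FPKM times length (0.03 to 0.045, limits chosen after seeing the values) was taken as 1 fragment.

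Genes averaging at least 1 FPKM were kept, and ratios were log2(FPKM + 0.1), which understates changes of low genes. With 1 library per group no test was made. Medians carry 95% binomial intervals without an assumed distribution, which reflect the spread between genes only. Named members were the 10 highest means, and, with a mean of at least 2 FPKM and a value above 0 in each library, the 4 highest and lowest polysome ratios and the 4 largest rises and falls, with a list of 28 studied names, sense genes and METTL3. Members and lists were chosen with earlier results of these data known. GENCODE 44 and RefSeq (GRCh38) gave positions, 7 members by a RefSeq synonym. Alternatives were other pseudocounts, filters, scalings, names and a 2-fold limit, with 4 added after seeing the data. Some items near these results are not reported here. Functions were tested on simulated data. Python 3.11.15, pandas 2.3.3, numpy 2.4.6, scipy 1.17.1 and matplotlib 3.10.9 were used.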

Additional observations from a re-analysis of the deposited data

Results flagged for a closer look

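The comparison of METTL3 K177Q with METTL3 WT had opposite signs in the fractions. The median log2 ratio of the 136 antisense lncRNAs was -0.25 in the polysome and 0.10 in the sub-polysome libraries in FPKM, and -0.18 and -0.11 in TPM, where both were negative. Relative to the median of all kept genes the signs were opposite in both units. In FPKM the signs were also opposite in the other lncRNAs (-0.28 and 0.13), so the pattern was not particular to antisense lncRNAs. Each ratio compares 1 library with 1 library, and the difference between fractions was not tested.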

How the results depend on the processing

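No paired analysis was possible because each condition had 1 library among the listed samples, all with the same replicate number. Of 131 recomputed summary values, 95 stayed within the interval of the median or within 1.5 times the count, 34 moved further and 2 changed sign. The sign changes came with TPM, which gave -0.11 for the median K177Q to WT ratio in the sub-polysome and 0.030 for the median translation efficiency ratio, beside -1.51 for the K177Q polysome ratio and 31 members higher in translation efficiency, where 18.6% of all genes were. AGAP2-AS1 (0.03), CEBPB-AS1 (0.09) and FGD5-AS1 (0.28) turned positive in that ratio. With a pseudocount of 1 FPKM, the median polysome ratio was -1.09 in WT and -1.27 in K177Q cells, the difference from the sense gene -1.32 and -1.57, and 5 members were higher in translation efficiency, where 1.46% of all kept genes were. IQCH-AS1 (-0.053), MAGI2-AS3 (-0.022) and PCNA-AS1 (-0.19, from 0.38) then turned negative in that ratio, and CDK6-AS1 (0.13), SBNO1-AS1 (0.051), ZEB1-AS1 (0.47), PYCARD-AS1 (-0.48) and SERTAD4-AS1 (-0.58) fell under the 1.5-fold limit. Without a minimum beyond a value above 0, there were 568 members, with medians of -0.81 and -0.87 for the polysome ratio in WT and K177Q cells, 0 for K177Q to WT in each fraction, -0.15 for translation efficiency, with 119 higher and 182 lower, where 10.4% and 12.2% of all genes were, and -0.80 and -1.06 for the difference from the sense gene. A mean of at least 5 FPKM left 38 members, with polysome ratios of -1.90 and -2.57 and 2 higher and 13 lower in translation efficiency (1.22% and 5.69% of all genes). At least 1 FPKM in each library left 61 members, 3 higher and 17 lower (2.82% and 5.49% of all genes), and -1.78 for the difference from the sense gene in K177Q cells. A 2-fold limit left 5 higher and 30 lower, where 0.77% and 1.9% of all kept genes were. The alternatives added after seeing the data moved values where members without exon overlap were taken alone. These 24 had a K177Q polysome ratio of -2.25, a translation efficiency ratio of -0.42 with 0 higher and 9 lower at 1.5-fold (4.08% and 7.03% of all kept genes), and a difference from the sense gene of -2.75 in K177Q cells. No such fold count carries a test, so no p-value exists for the 0. Size factors, centring, the wider naming rule, leaving out the 5 most abundant members or those listed at 0, and exon-overlapping members alone moved none of these values further than the limits above. The counting SE of the translation efficiency ratio was 0.37 in the median of 127 members. Of the members picked by that ratio, 27 of 42 lower and 5 of 16 higher exceeded 2 such SEs. No share over all kept genes is given for these counts.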

Other observations

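Antisense names outside the class or naming rule were read as values only. Of the 32 names that end in -AS without a digit or that the table classes as antisense RNA, 3 had a mean of at least 1 FPKM. TRAF3IP2-AS1 had 2.64 FPKM in the WT sub-polysome, 1.55 FPKM in the WT polysome, 4.26 FPKM in the K177Q sub-polysome and 0.341 FPKM in the K177Q polysome library. PINK1-AS, opposite a gene for a mitochondrial kinase, had 1.35, 1.80, 1.32 and 1.49 FPKM in the same order. Its polysome value was the higher in each genotype but within 1.5-fold, with log2 ratios of 0.39 in WT and 0.16 in K177Q cells. ATXN2-AS had 0.353, 0.765 and 2.94 FPKM and was listed at 0 in the K177Q polysome library.

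ZFAS1, an antisense lncRNA by position whose name lacks the ending and which hosts small nucleolar RNAs, had 502 FPKM in the WT sub-polysome, 63.0 FPKM in the WT polysome, 652 FPKM in the K177Q sub-polysome and 37.1 FPKM in the K177Q polysome library. It was thus above all 136 members in both sub-polysome libraries and 1 of the 21 snoRNA host genes, which were all lower in polysomes in both genotypes.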
